A study of Mus musculus with 9 samples.

Results

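The insulin-like growth factor (IGF) family of the mouse aorta was followed through 10 genes: the ligands Igf1 and Igf2, the non-coding RNA H19 from the Igf2 locus, the receptor Igf1r, and the binding proteins Igfbp2 to Igfbp7. They were taken by gene symbol, and all 10 were found among the 37668 genes listed; all 10 were also among the 14225 genes with at least 1 FPKM (fragment number scaled to transcript length and library size) in some group. The tissue was aorta from 9 male mice, 90 days old, on the background 129T2SvEmsJ:C57Blk/6J. All of them carried the floxed AT1ar allele (AT1ar is the angiotensin II type 1a receptor, gene Agtr1a). The floxed group had no Cre transgene, the Cdh5Cre group a Cdh5-Cre transgene (Cdh5 encodes an endothelial cadherin), and the Sm22Cre group a Sm22-Cre transgene (SM22, or Tagln, is a smooth muscle gene that is also active in the embryonic heart). The design sets receptor loss in endothelium or in smooth muscle against the floxed controls. Each group had 3 mice. The series is titled for Marfan syndrome, but the labels record no fibrillin-1 allele in any group.

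The deposited table gives 1 FPKM value per gene and group, in which the 3 libraries had already been combined. The spread between mice and the sequencing depth are therefore unknown, no test could be made, and none of the differences has a replicate check. Agtr1a, the targeted gene, was low in every group, at 1.75 FPKM in floxed aorta, 1.32 in Cdh5Cre and 1.21 in Sm22Cre. Which exon was floxed is not known here, and the values cover all exons in all cells of the tissue, so they do not check the deletion. The tissue was checked against smooth muscle markers: Tagln stood at 4089 FPKM and Myh11 (smooth muscle myosin) at 1341 in floxed, while Acta2 is listed at 0 in all groups with a status that marks too many fragments to estimate.

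IGF1 and IGF2 are small secreted hormones related to insulin that promote growth and survival. Both act through IGF1R, a tyrosine kinase of the cell surface, which signals through the insulin receptor substrates to PI3K, AKT and mTOR and restrains the FoxO transcription factors. Most IGF outside cells is held by IGF-binding proteins, which carry the ligands, keep them from the receptor or release them when proteases cut the binding protein. In the vessel wall, smooth muscle cells and fibroblasts make IGF1 and several binding proteins, and angiotensin II is known to influence IGF1 and its receptor in vascular muscle. Igf2 and H19 are imprinted neighbours: Igf2 is expressed mainly from the paternal copy and H19 from the maternal copy, and both are abundant in the fetus and decline after birth.

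Promoter sequences are shown for the protein-coding members higher by 1.5-fold or more in Cdh5Cre than in floxed (Igf1, Igfbp3, Igfbp4 and Igfbp6). They are also shown for Igfbp2, the only member lower than floxed by 1.5-fold or more in both Cre groups. Each run is the 250 bases before a RefSeq transcription start on GRCm38.p6, written 5′ to 3′ on the strand of the gene, with motif matches on either strand in capitals. The motifs searched were the TATA box as TATAAA, the CCAAT box by those letters, the GC box written as GGGCGG, the AP-1 site in the form TGACTCA and the forkhead site spelled TGTTTAC.
Igf1, chr10:87860861-87861110, plus strand: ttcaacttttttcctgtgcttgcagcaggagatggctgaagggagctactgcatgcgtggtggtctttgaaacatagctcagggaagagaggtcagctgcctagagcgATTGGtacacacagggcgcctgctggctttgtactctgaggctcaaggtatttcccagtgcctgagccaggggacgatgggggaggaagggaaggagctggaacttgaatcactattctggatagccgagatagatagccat
Igfbp3, chr11:7213924-7214173, minus strand: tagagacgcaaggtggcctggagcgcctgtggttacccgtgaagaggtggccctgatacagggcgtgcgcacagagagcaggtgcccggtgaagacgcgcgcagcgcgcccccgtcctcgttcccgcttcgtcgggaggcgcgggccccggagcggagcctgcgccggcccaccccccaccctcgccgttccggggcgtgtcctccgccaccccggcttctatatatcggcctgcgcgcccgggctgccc
Igfbp4, chr11:99040994-99041243, plus strand: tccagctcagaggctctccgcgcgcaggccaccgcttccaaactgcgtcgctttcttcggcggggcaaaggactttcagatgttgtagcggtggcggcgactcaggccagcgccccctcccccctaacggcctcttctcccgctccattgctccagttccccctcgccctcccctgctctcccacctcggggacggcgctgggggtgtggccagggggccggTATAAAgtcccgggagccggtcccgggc
Igfbp6, chr15:102143936-102144185, plus strand: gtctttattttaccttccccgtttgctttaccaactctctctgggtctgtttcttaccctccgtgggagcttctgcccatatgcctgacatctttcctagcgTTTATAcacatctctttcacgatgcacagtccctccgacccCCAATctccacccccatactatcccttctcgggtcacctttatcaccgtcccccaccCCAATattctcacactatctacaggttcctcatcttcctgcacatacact
Igfbp2, chr1:72824230-72824479, plus strand: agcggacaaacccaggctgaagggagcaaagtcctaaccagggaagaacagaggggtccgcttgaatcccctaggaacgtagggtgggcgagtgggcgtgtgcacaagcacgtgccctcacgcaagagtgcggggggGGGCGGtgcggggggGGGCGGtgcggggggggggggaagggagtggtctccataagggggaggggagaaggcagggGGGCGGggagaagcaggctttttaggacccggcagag
Igfbp4 had a TATAAA match that began 28 bases before the start, and 12.4% of the 32851 RefSeq windows of this length held that motif on either strand. The Igfbp2 window held 3 GC boxes, a motif present in 32.7% of the windows. Among members whose windows are not shown, Igfbp7 had 4 GC boxes, Igf1r had 2 and a start of Igf2 had 2. Igf1 had 1 CCAAT match and Igfbp6 had 2, a motif present in 33.9%. Igfbp6 also had TATAAA on the opposite strand, 148 bases before the start. The AP-1 site, held by 4.46% of the windows, and the forkhead site, held by 3.17%, were in none of the 5 windows shown. A further RefSeq start of Igfbp2 has a window, chr1:72825137-72825386, with an AP-1 match 39 bases before it. The Igfbp3 window held none of the 5 motifs and 32 CpG dinucleotides, against 22 in Igfbp4, 14 in Igfbp2, 7 in Igfbp6, 5 in Igf1 and a median of 6 over all windows. No motif searched was common to the windows shown for Igf1, Igfbp3, Igfbp4 and Igfbp6. For Igfbp6 and the Igfbp2 window shown, the bases after the start were not found in a GENCODE M21 transcript of the gene. For the further Igfbp2 start, whose window held the AP-1 match, they were found.

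Igf2 and H19 each enclose a microRNA, shown because an estimate for the host gene says nothing of the mature microRNA. RefSeq's mature sequences on GRCm38.p6 follow, with the seed, bases 2 to 8, in capitals.
mmu-miR-675-5p, in H19, chr7:142577112-142577133, minus strand: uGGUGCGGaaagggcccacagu
mmu-miR-675-3p, in H19, chr7:142577078-142577099, minus strand: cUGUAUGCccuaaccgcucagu
mmu-miR-483-5p, in Igf2, chr7:142654968-142654989, minus strand: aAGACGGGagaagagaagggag
mmu-miR-483-3p, in Igf2, chr7:142654932-142654952, minus strand: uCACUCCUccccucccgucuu
The 4 mature sequences have 4 different seeds. The precursor genes Mir675 and Mir483 are listed at 0 FPKM in every group, in libraries of poly-A RNA that do not capture mature microRNAs.

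Binding proteins made up nearly all of the family's transcript. In floxed aorta the 6 binding protein genes summed to 2703 FPKM, against 26.4 for the ligands Igf1 and Igf2 together. Igfbp7 alone took 74.7% of that binding protein sum in floxed, 69.6% in Cdh5Cre and 76.1% in Sm22Cre, and it stood at place 21 among the 14225 genes in floxed. Igfbp4 (place 167) and Igfbp5 (place 390) followed, then Igfbp6 and Igfbp2, then Igf1, Igf1r, Igfbp3, Igf2 and H19. FPKM is scaled to transcript length, so these levels can be set beside each other. The upper 4 places were the same in all groups. Below them, Igf1 stood above Igfbp2 in Cdh5Cre and below it in the other groups, and Igf1r moved from above Igfbp3 and Igf2 in floxed to below both in Cdh5Cre. Without replicates it cannot be said which neighbours in this order differ beyond their spread.

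**Figure D1:**
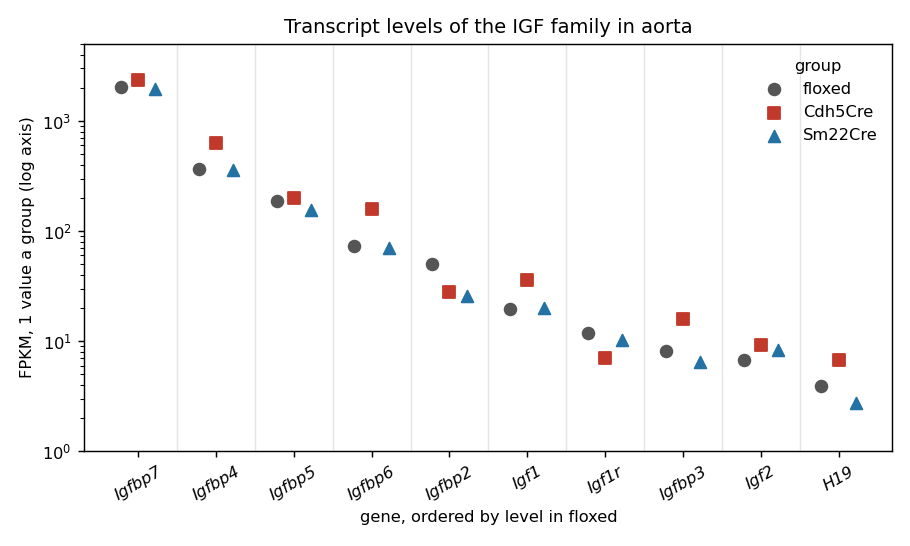
FPKM (log axis) of the 10 genes in the floxed, Cdh5Cre and Sm22Cre groups, 1 authors' value per group with no error bar, ordered by the floxed level. The levels run from 2018 FPKM for Igfbp7 to 3.89 for H19 in floxed, Cdh5Cre is the highest value for 8 genes, and Igfbp2 and Igf1r are highest in floxed.

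Differences are given as plain ratios of FPKM and as log2 ratios of FPKM + 1, which understate differences of low genes. In Cdh5Cre against floxed, 8 of the 10 members were higher (51.7% of all genes were) and 2 lower (48.2%), with a median log2 ratio of 0.54 against 0.02 over all genes. Of the 8, Igfbp5 turned lower under 2 other scalings, and Igfbp7 under quantile normalization and with the transcript trend described below removed. By 1.5-fold or more, 5 members were higher (8.33% of all genes) and 2 lower (6.02%), which is 7 in either direction (14.3%). At 2-fold, 1 member was higher (1.19% of all genes) and 0 lower (0.703%), with 1.89% of all genes in either direction.

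In Sm22Cre against floxed, 2 members were higher (52% of all genes) and 8 lower (47.9%), with a median of -0.11 against 0.01 over all genes. At 1.5-fold, 0 members were higher (0.619% of all genes) and 1 lower (0.921%), which was Igfbp2, against 1.54% of all genes in either direction. No member reached 2-fold, as 0.302% of all genes did upward, 0.33% downward and 0.633% in either direction. In Sm22Cre against Cdh5Cre, 1 member was higher (49.1% of all genes) and 9 lower (50.7%), with a median of -0.59 against -0.01. At 1.5-fold, 0 members were higher (4.34% of all genes) and 5 lower (7.57%), with 11.9% of all genes in either direction. At 2-fold, 0 were higher (0.401% of all genes) and 3 lower (1.23%), with 1.63% in either direction. Each comparison shares a group with the other two, so these counts are not independent of each other.

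**Figure D2:**
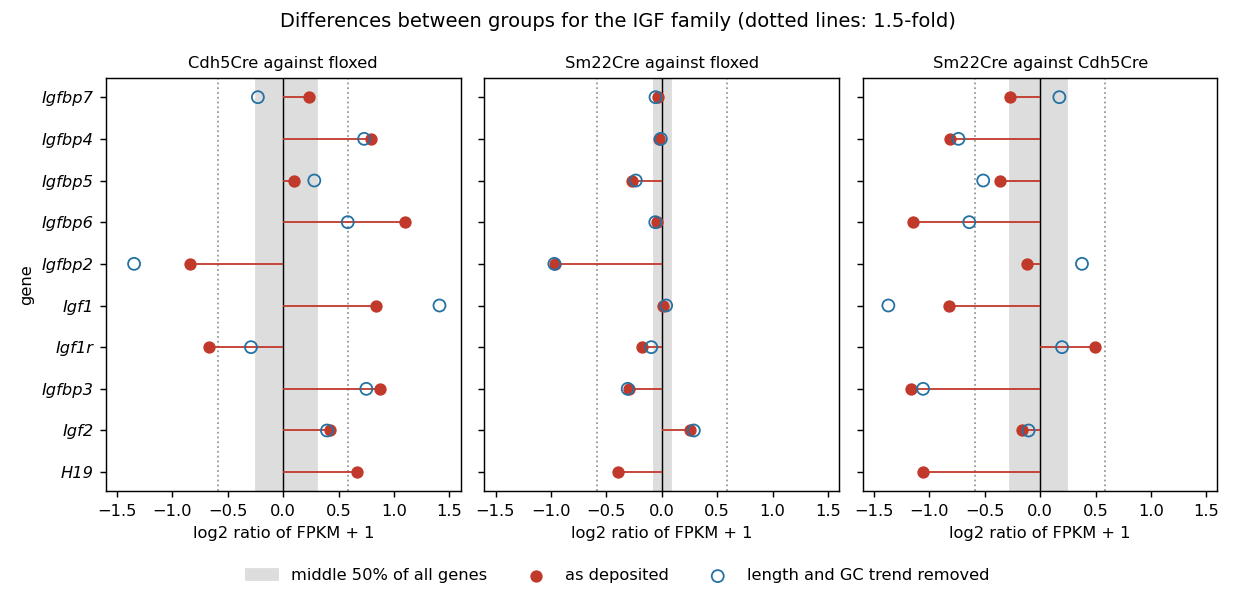
Log2 ratios of FPKM + 1 for each gene in the 3 comparisons, as deposited (filled points) and after the trend on length and GC content was removed (open circles, not made for the non-coding H19). The grey band is the middle 50% of all 14225 genes and dotted lines mark 1.5-fold. In Sm22Cre against floxed only Igfbp2, at -0.96, lies beyond the lower dotted line.

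Igf1, Igf2, Igfbp3, Igfbp4, Igfbp5 and Igfbp6 had status OK in all pairs, and H19, Igf1r, Igfbp2 and Igfbp7 had status FAIL, which in tables of this layout marks a numerical failure of the authors' own comparison. Igfbp7 is listed at the same locus as Polr2b, Igf1 as Igf1os, Igf2 as Igf2os and Mir483, and H19 as Mir675, so these loci may be wider than the gene and fragments may be divided between genes. Igf1os and Igf2os, the antisense genes, were under 0.1 FPKM in every group.

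Among the ligands, Igf1 (ENSMUSG00000020053, mm9 chromosome 10, 87289122 to 87399792) was at 19.7 FPKM in floxed aorta, 35.9 in Cdh5Cre and 19.9 in Sm22Cre. Cdh5Cre therefore stood at 1.82-fold of floxed, a log2 ratio of 0.83, while Sm22Cre and floxed differed by a log2 ratio of 0.01. Igf2 (ENSMUSG00000048583, chromosome 7, 149836673 to 149856261) was at 6.71 FPKM in floxed aorta, 9.31 in Cdh5Cre and 8.22 in Sm22Cre, higher in both Cre groups with log2 ratios of 0.42 and 0.26. It was the member with the highest ratio in Sm22Cre against floxed. Igf1 exceeded Igf2 in every group, by 2.94-fold in floxed, 3.86-fold in Cdh5Cre and 2.42-fold in Sm22Cre.

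H19 (ENSMUSG00000000031, chromosome 7, 149761434 to 149764048), a non-coding RNA known as a brake on fetal growth, was at 3.89 FPKM in floxed aorta, 6.78 in Cdh5Cre and 2.73 in Sm22Cre. It was 1.74-fold higher in Cdh5Cre than in floxed (log2 ratio 0.67, or 0.49 with equal sums) and lower in Sm22Cre (log2 ratio -0.39), so Cdh5Cre stood 2.48-fold above Sm22Cre. H19 and Igf2 lie 72.6 kb apart in the listed loci, yet in Sm22Cre against floxed Igf2 was higher and H19 lower. The ratio of Igf2 to H19 was 1.73 in floxed, 1.37 in Cdh5Cre and 3.01 in Sm22Cre. Their neighbour Mrpl23, a mitochondrial ribosomal protein gene outside the family, was at 37.3, 59.7 and 37.6 FPKM in floxed, Cdh5Cre and Sm22Cre. Its log2 ratio in Cdh5Cre against floxed was 0.66, or 0.18 with the transcript trend described below removed. No such value was made for the non-coding H19. Ins2, an insulin gene 8.3 kb beyond Igf2, was under 1 FPKM in every group, at 0.30, 0.28 and 0.20, and so was Th, the tyrosine hydroxylase gene farther along.

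The receptor gene Igf1r (ENSMUSG00000005533, chromosome 7, 75097713 to 75371484) was at 11.8 FPKM in floxed aorta, 7.07 in Cdh5Cre and 10.3 in Sm22Cre. It was 1.67-fold lower in Cdh5Cre than in floxed (log2 ratio -0.67), and the Sm22Cre value was 12.4% below floxed (log2 ratio -0.18). Igf1 and Igf1r thus stood on opposite sides of 0 in Cdh5Cre against floxed. Insr, the insulin receptor gene, was at 20.3, 12.2 and 19.8 FPKM in floxed, Cdh5Cre and Sm22Cre, and its ratio to Igf1r was 1.72, 1.73 and 1.91. For Insr the log2 ratio in Cdh5Cre against floxed was -0.69, or -0.29 with the transcript trend removed. Igf2r, which encodes the receptor that takes up IGF2 for degradation, was at 15.5 FPKM in floxed and 12.7 in Cdh5Cre, 1.31-fold and 1.80-fold the Igf1r level.

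Igfbp2 (ENSMUSG00000039323, chromosome 1, 72871077 to 72899048), which encodes a binding protein that also binds integrins through an RGD motif, was the member that stood lower in both Cre groups by more than 1.5-fold. It was at 50.6 FPKM in floxed aorta, 27.7 in Cdh5Cre and 25.4 in Sm22Cre. Floxed was 1.82-fold above Cdh5Cre and 1.99-fold above Sm22Cre, with log2 ratios of -0.84 and -0.96 against floxed. In Sm22Cre against floxed its ratio was at place 53 from the lowest of 14225 genes, and in Cdh5Cre against floxed at place 239. The 2 Cre groups differed from each other by a log2 ratio of -0.12, which turned to 0.08 with FPKM rescaled to equal sums and to 0.38 with the transcript trend removed, and they share the floxed value as their reference.

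Igfbp5 (ENSMUSG00000026185, chromosome 1, 72904506 to 72921458), whose protein binds extracellular matrix, lies 5.46 kb from Igfbp2 in the listed loci. It was at 187.4 FPKM in floxed aorta, 200.1 in Cdh5Cre and 155.5 in Sm22Cre, with log2 ratios of 0.09 and -0.27 against floxed. The first of these turned to -0.10 under quantile normalization and to -0.12 with equal sums. Its ratio to Igfbp2 was 3.71 in floxed, 7.22 in Cdh5Cre and 6.11 in Sm22Cre, so the pair of neighbours did not keep a common proportion.

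Igfbp6 (ENSMUSG00000023046, chromosome 15, 101974793 to 101979942), whose protein prefers IGF2 over IGF1, had the highest ratio of the family in Cdh5Cre against floxed as deposited. It was at 73.1 FPKM in floxed aorta, 157.8 in Cdh5Cre and 70.8 in Sm22Cre. Cdh5Cre stood at 2.16-fold of floxed, a log2 ratio of 1.10, and Sm22Cre differed from floxed by -0.04. The Cdh5Cre ratio was under 2-fold with quantile normalization (0.92), with equal sums (0.89) and with the trend removed (0.58), where Igf1, Igfbp3 and Igfbp4 stood above it. Igfbp4 (ENSMUSG00000017493, chromosome 11, 98902558 to 98913969), whose protein restrains IGF action until it is cut by the protease PAPP-A, was at 366.0, 632.6 and 359.7 FPKM in floxed, Cdh5Cre and Sm22Cre. That is 1.73-fold higher in Cdh5Cre (log2 ratio 0.79) and a log2 ratio of -0.03 in Sm22Cre. The Cdh5Cre ratio fell below 1.5-fold under quantile normalization (0.34) and with equal sums (0.58).

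Igfbp3 (ENSMUSG00000020427, chromosome 11, 7106089 to 7113926), which encodes the main IGF carrier of blood plasma, was at 8.15 FPKM in floxed aorta, 15.8 in Cdh5Cre and 6.46 in Sm22Cre. It was 1.93-fold higher in Cdh5Cre than in floxed (log2 ratio 0.87) and lower in Sm22Cre (log2 ratio -0.30), and Cdh5Cre stood 2.44-fold above Sm22Cre. Its neighbour Igfbp1, which lies 3.54 kb away and is chiefly a liver gene, is listed at 0 in every group. Igfbp7 (ENSMUSG00000036256, chromosome 5, 77739172 to 77837070), a matrix-associated protein with low affinity for IGFs, was at 2018 FPKM in floxed aorta, 2370 in Cdh5Cre and 1966 in Sm22Cre, with log2 ratios of 0.23 (-0.25 under quantile normalization) and -0.04. The family's most abundant member was thus among those that differed least.

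Ratios in Cdh5Cre against floxed depended on the transcript: Spearman's rho across 12317 protein-coding genes, which are not replicates, was -0.58 with length and 0.53 with GC content. Against floxed the corresponding rho values for Sm22Cre were -0.24 and -0.02. Members differed in where they lay on this trend. Igf1 has a long transcript of low GC content (7052 bases, 38.0% GC), for which the fitted trend was below 0, but it was higher, and its log2 ratio with the trend removed was 1.41. Igfbp2 has a short transcript of high GC content (1307 bases, 62.1% GC), for which the fitted trend was above 0, but it was lower, and its value with the trend removed was -1.35.

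Igfbp6, Igf1r, Igfbp3, Igfbp4 and Igf2 moved toward 0 with the trend removed. Igfbp6, the shortest transcript of the family (1112 bases, 60.7% GC), went from 1.10 to 0.58, just under 1.5-fold. Igf1r, the longest (11409 bases), went from -0.67 to -0.29, and Igfbp7 changed sign from 0.23 to -0.23. Igfbp3 (0.75) and Igfbp4 (0.73) stayed above 1.5-fold, and Igf2 was at 0.39. Igfbp5 moved away from 0, from 0.09 to 0.28. In Sm22Cre against floxed the removal moved Igfbp2 by little, from -0.96 to -0.97.

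**Figure D3:**
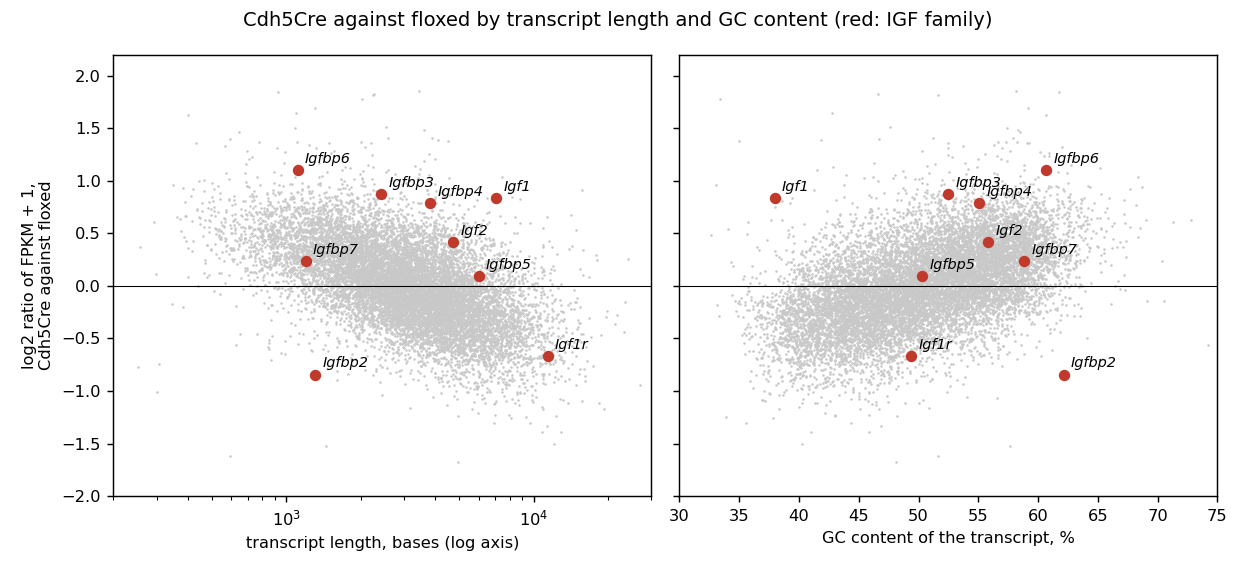
Log2 ratio of FPKM + 1 in Cdh5Cre against floxed for 12317 protein-coding genes (grey) plotted by transcript length (left, log axis) and by GC content (right), with the 9 protein-coding members in red. Igf1 lies above and Igfbp2 below the run of genes with like transcripts; 19 genes fall outside the left panel and 17 outside the right.

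The rest of the pathway was followed through 92 genes in 8 lists, of which 78 reached 1 FPKM. In Cdh5Cre against floxed 30 were higher and 48 lower; at 1.5-fold, 4 stood above floxed and 8 below it, together 15.4% of the list against 14.3% of all genes. These 1.5-fold counts became 5 and 2 with the trend removed, where 364 of all 12317 genes were higher and 234 lower. With FPKM rescaled to equal sums they became 2 and 17. The median log2 ratio was -0.17 and became -0.048 with the trend removed. In Sm22Cre against floxed the split was also 30 and 48, with a median of -0.04, and Trim63 alone reached 1.5-fold (1.28% of the list, 1.54% of all genes). In Sm22Cre against Cdh5Cre 48 were higher and 30 lower, 5 and 8 by 1.5-fold or more (16.7% of the list, 11.9% of all genes), with a median of 0.15 (0.044 with the trend removed).

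Over all genes, 48.2% were lower in Cdh5Cre than in floxed and 47.9% in Sm22Cre. With the trend removed, 6515 of 12317 protein-coding genes were lower in Cdh5Cre than in floxed. All 10 analysed genes for receptors and receptor adaptors were lower in Cdh5Cre than in floxed, with a median of -0.30; with the trend removed 9 of the 10 were lower and the median was -0.26. In Sm22Cre 8 of the 10 were lower than in floxed, with a median of -0.05. Irs2, a docking protein that passes the signal of the IGF1 and insulin receptors to PI3K, was the lowest in both comparisons, at 16.4 FPKM in floxed aorta, 7.30 in Cdh5Cre and 11.6 in Sm22Cre. Its log2 ratios were -1.07 and -0.46. Irs1, its close relative, was at 4.31, 2.00 and 3.20 FPKM, with log2 ratios of -0.82 and -0.34. The Cdh5Cre ratio of Irs1 was -0.53 with the trend removed. Grb14, an adaptor that inhibits the insulin receptor, had the highest ratios of the list, -0.08 and 0.04. In Sm22Cre against Cdh5Cre Insr had the highest ratio, 0.65 (0.31 with the trend removed).

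In the list of PI3K, AKT, mTOR and FoxO genes, 19 of 23 were lower in Cdh5Cre and 15 of 23 in Sm22Cre, with medians of -0.20 and -0.05. With the trend removed 16 of 23 were lower in Cdh5Cre, with a median of -0.08. Pdpk1, the kinase that activates AKT, was the lowest in Cdh5Cre at 16.1 FPKM in floxed aorta, 8.09 in Cdh5Cre and 15.9 in Sm22Cre. Its log2 ratio in Cdh5Cre against floxed was -0.91, or -0.55 with the trend removed. Eif4ebp1, a repressor of translation that mTOR inactivates, was the highest, at 42.9, 70.3 and 43.1 FPKM. In Sm22Cre against floxed the extremes were small: Foxo3 at 0.18 and Gsk3b at -0.21.

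Of 10 FoxO target genes, 7 were lower in Cdh5Cre (median -0.25; 8 and -0.16 with the trend removed) and 6 in Sm22Cre (median -0.09). Fbxo32, a ubiquitin ligase of muscle wasting, was at 45.5 FPKM in floxed aorta, 18.8 in Cdh5Cre and 36.9 in Sm22Cre, log2 ratios of -1.23 and -0.30, and Sesn3 was the other target lower by 2-fold in Cdh5Cre, at 7.78 and 3.33 FPKM (-1.02). With the trend removed Fbxo32 was at -0.88 and Sesn3 at -0.57. Trim63, also a muscle ubiquitin ligase, had the highest ratio in Cdh5Cre (0.32) and the lowest in Sm22Cre (-0.60), at 2.30, 3.12 and 1.18 FPKM. Bcl6, a transcriptional repressor, had the highest ratio in Sm22Cre, 0.32.

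Of the proteases that cut binding proteins and their inhibitors, none of the 8 analysed genes reached 1.5-fold of FPKM + 1 against floxed in either Cre group. The medians were 0.30 in Cdh5Cre (0.07 with the trend removed) and 0.02 in Sm22Cre. Pappa and Pappa2, the classic proteases of binding proteins, were under 1 FPKM in every group. Stc2, an inhibitor of PAPP-A, had the highest ratio in both, at 5.04 FPKM in floxed aorta, 7.96 in Cdh5Cre and 6.35 in Sm22Cre (0.57 and 0.28). As a plain ratio of FPKM, Stc2 in Cdh5Cre stood at 1.58-fold of floxed, and with the trend removed its log2 ratio reached 0.61. Adamts1 was the lowest in Cdh5Cre (-0.45) and Timp1 the lowest in Sm22Cre (-0.52).

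Proteins with an IGFBP domain outside the family had a median of 0.34 in Cdh5Cre (0.12 with the trend removed) and 0.02 in Sm22Cre over 10 genes. Ccn5, a CCN family member of smooth muscle, was at 124.1 FPKM in floxed aorta, 249.3 in Cdh5Cre and 126.8 in Sm22Cre and was the list's highest in Cdh5Cre (1.00), where Crim1 was the lowest (-0.22). In Sm22Cre Ccn2 was the highest (0.56) and Ccn1 the lowest (-0.54). Ccn3 had the highest ratio in Sm22Cre against Cdh5Cre, 0.34. Of the remaining binding protein, IGFALS and IGF2BP genes, Igf2bp2, an RNA-binding protein, was the only 1 of 6 to reach 1 FPKM, at 1.70, 1.97 and 1.64 in floxed, Cdh5Cre and Sm22Cre.

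In the growth hormone axis, which drives Igf1 in liver, 4 of 7 genes were lower in Cdh5Cre and 6 of 7 in Sm22Cre, with medians of -0.20 and -0.14. With the trend removed 5 of 7 were lower in Cdh5Cre, with a median of -0.11. Ghr, the growth hormone receptor gene, was at 39.4, 28.8 and 35.7 FPKM in floxed, Cdh5Cre and Sm22Cre. Its log2 ratio in Cdh5Cre against floxed was -0.44, or -0.11 with the trend removed. Socs3, a feedback inhibitor of cytokine receptors, was the highest in Cdh5Cre (0.71) and Jak2 the lowest (-0.46). With the trend removed Socs3 was at 0.46, under 1.5-fold, and Jak2 at -0.16. Socs2 was the highest in Sm22Cre (0.08) and Cish the lowest (-0.54).

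Of 12 imprinted growth genes, a set often co-expressed with Igf2 and H19, 8 were higher in Cdh5Cre (51.7% of all genes were). In Sm22Cre 6 of the 12 were higher (52% of all genes). The medians were 0.12 (0.01 with the trend removed) and -0.003. With the trend removed 6 of 11 were higher in Cdh5Cre, as were 5802 of all 12317 genes. Meg3, a maternally expressed non-coding RNA, had the highest ratio in both comparisons against floxed, at 79.9 FPKM in floxed aorta, 151.1 in Cdh5Cre and 105.5 in Sm22Cre (0.91 and 0.40). Peg3 was the lowest in Cdh5Cre (-0.44) and Cdkn1c the lowest in Sm22Cre (-0.24), while Ndn was the lowest in Sm22Cre against Cdh5Cre (-0.59). With the trend removed Peg3 was at -0.06 in Cdh5Cre against floxed, and Cdkn1c was the lowest there at -0.12.

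**Figure D4:**
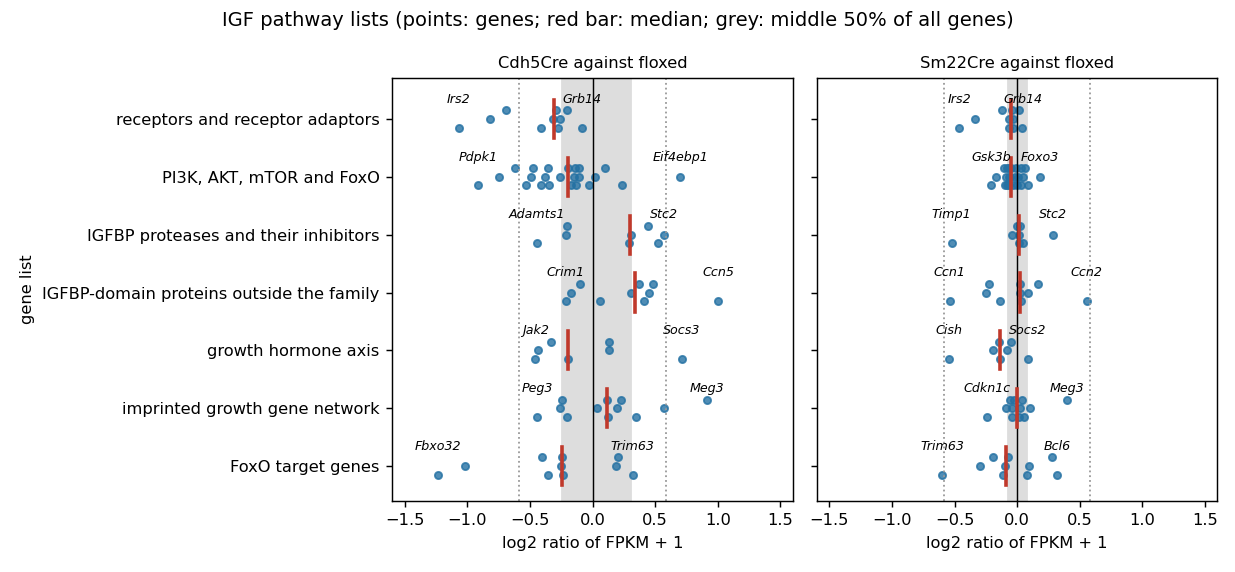
Log2 ratios of FPKM + 1 against floxed for the analysed genes of 7 IGF pathway lists (points) with each list's median (red bar), in Cdh5Cre (left) and Sm22Cre (right); the grey band is the middle 50% of all genes and dotted lines mark 1.5-fold. The 10 receptor and adaptor genes all lie below 0 on the left, and points lie closer to 0 on the right.

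In bulk tissue, more cells of a type and more RNA per cell cannot be told apart, and markers of several cell types differed along with the family. FPKM summed over all genes was itself highest in Cdh5Cre, at 495724 in floxed, 607860 in Cdh5Cre and 500015 in Sm22Cre. Without mitochondrial and globin genes these totals were 456650, 528497 and 459111. The marker sums that follow are as deposited and were not rescaled to the totals. Of 8 adventitial fibroblast markers, 7 were higher in Cdh5Cre than in floxed (51.7% of all genes were) and 4 by 1.5-fold or more (8.33% of all genes), with a median of 0.64. Their summed level was 1018 FPKM in floxed aorta, 1826 in Cdh5Cre and 1026 in Sm22Cre, with none listed at 0. The sum was thus highest in Cdh5Cre, as Igf1, Igfbp3, Igfbp4 and Igfbp6 were. So were 55 of the 68 analysed marker genes, counted over all the cell types. Pi16 and Clec3b were at 477.8 and 353.9 FPKM in Cdh5Cre against 207.1 and 145.3 in floxed, while Pdgfra was at 25.2 and 25.7. All 8 endothelial markers were higher in Cdh5Cre too, with sums of 271.3, 393.9 and 297.9 FPKM in floxed, Cdh5Cre and Sm22Cre. The part of either cell type in the family's values was not tested.

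Heart muscle markers summed to 877.2 FPKM in floxed aorta, 1326 in Cdh5Cre and 395.0 in Sm22Cre, and mesothelial markers to 27.7, 39.6 and 19.5. The order of these sums, with Cdh5Cre highest and Sm22Cre lowest, was also that of H19 and of Igfbp3 to Igfbp7, and of the smooth muscle and Schwann cell sums. All 8 heart muscle and all 6 mesothelial markers were lower in Sm22Cre than in floxed, and none was listed at 0. Their part in the members' values was not tested. Red cell genes summed to 4020, 25454 and 9029 FPKM, platelet genes to 45.1, 266.7 and 87.9 and Schwann cell genes to 15.97, 23.7 and 14.7. Smooth muscle sums without the failed Acta2 were 6890, 7289 and 6803 FPKM and adipocyte sums 463.7, 531.0 and 488.8. The smooth muscle sums rested mostly on Tagln. Of the 7 analysed smooth muscle markers, 4 were lower in Cdh5Cre than in floxed, with a median of -0.04. With the trend removed 5 of them were lower, with a median of -0.10. Macrophage sums, 242.5, 263.2 and 263.0 FPKM, rested mostly on Lyz2 and C1qa, while 4 of the 7 macrophage markers were lower in Cdh5Cre than in floxed, with a median of -0.31, and all 7 with the trend removed. Mrc1 (-0.75) and Adgre1 (-0.59) were lower there by 1.5-fold or more. Igfbp2 and Igf1r were highest in floxed, as were 7 of the 68 analysed marker genes, from several cell types. Of the 7 smooth muscle markers, 3 were highest in floxed, 3 in Cdh5Cre and 1 in Sm22Cre. Those highest in floxed were Myh11 (1341, 1142 and 1267 FPKM), Smtn and Lmod1, the last 2 with log2 ratios of -0.06 and -0.04 in Cdh5Cre. The part of any cell type in the values of Igfbp2 and Igf1r was not tested.

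Genes most like a member were sought by the distance between their log2 ratios in both comparisons against floxed, among 8961 other genes with a symbol and at least 5 FPKM in every group. This likeness rests on 3 group values, and 125 genes lay within 0.1 of Igf1 and 122 within 0.1 of Igf2. The nearest to Igf1 were Gm15590, Spef1 and Fau, and the nearest to Igf2 were Pabpn1, Hdhd5 and Arhgef1. Igfbp6 had 4 genes within 0.1, with Twist2, Bok and Ccdc124 the nearest. Igfbp2 had none within 0.1: its nearest were Bhlhe41 (distance 0.22), a clock repressor at 26.5, 13.5 and 15.2 FPKM in floxed, Cdh5Cre and Sm22Cre, Nnt (0.23), the mitochondrial transhydrogenase gene at 17.7, 10.7 and 9.65 FPKM, and the 5S ribosomal RNA gene n-R5s185 (0.41).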

How the data were processed

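RNA of mouse aorta was sequenced in 9 libraries, 3 per group. Per the labels' protocols, poly-A RNA with an integrity number above the submitters' minimum was made into stranded paired-end libraries. Per the submitters' processing notes, the build was mm9 and the tools named, without role or order, were Cufflinks 1.3.0, SAMtools 0.1.7, TopHat2 2.0.8 and Bowtie2 2.1.0. The authors deposited FPKM values, 1 per gene and group in each of 3 pairs of groups, with the libraries of a group already combined; depth, annotation and the use of strand are not given in the sources used here. Values of the same group differed between pairs for 15 genes, none of them a member. Symbols came from GENCODE M21 and matched 32638 of the 37668 gene IDs.

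Log2 ratios were computed on FPKM + 1 for the 14225 genes with 1 FPKM or more in some group, without 7 genes of status HIDATA, with Python 3.11.15, numpy 2.4.6 and pandas 2.3.3. Genes were called at 2-fold and at 1.5-fold on this scale. The dependence on the length and GC content of the longest protein-coding GENCODE M21 transcript was removed with a least-squares quadratic over 12317 genes (86.6%), a step tested on simulated data. Listed starts had 1 added, since 13791 gene lengths then equalled GENCODE M21's and 336 did without it. Promoters and microRNAs are RefSeq's on GRCm38.p6; 9 of the 10 members had a promoter entry, all but H19.

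All 10 members are named, with the highest and lowest gene of each pathway list in each comparison, Agtr1a, neighbours of Igf2, H19 and Igfbp3, and the 3 genes most like Igf1, Igf2 and the 2 members with the largest ratios; Igf1os, Igf2os, Polr2b, Insr, Igf2r, Irs1, Pappa, Pappa2, Sesn3, Ghr and single marker genes were named beside them after their values were seen. The members and lists were chosen with earlier results of these data known. Other pseudocounts, filters, scalings, statuses and pairs were tried.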

Additional observations from a re-analysis of the deposited data

How the results depend on the processing

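Of the 10 other settings, 6 could move a single member's ratio; of their 177 values, 160 kept their direction and their side of 1.5-fold, and none of 1.5-fold or more changed sign. The filters, the choice of status and the choice of pair left these ratios as they were by construction. FPKM rescaled to equal sums without mitochondrial and globin genes lowered the median of all genes in Cdh5Cre against floxed to -0.16. Against floxed, 3 members were then higher by 1.5-fold (median 0.36), with Igfbp4 at 0.58 and H19 at 0.49. Igfbp5 turned to -0.12 and the 1 member at 2-fold was Igfbp2 (-1.05) in place of Igfbp6. The pathway lists had 2 genes higher, 17 lower and a median of -0.36. In Sm22Cre against Cdh5Cre, 1 member was then higher by 1.5-fold (Igf1r, 0.67), 0 members reached 2-fold and the median was -0.39, while 15 pathway genes were higher and 5 lower (median 0.33). With the length and GC trend removed, 3 members were higher and 1 lower by 1.5-fold in Cdh5Cre against floxed, with 2 at 2-fold. At 1.5-fold 5 pathway genes were then higher and 2 lower (median -0.048). Of all 12317 genes with the trend removed, 364 were higher and 234 lower by 1.5-fold. In Sm22Cre against Cdh5Cre with the trend removed, 2 pathway genes were higher and 5 lower (median 0.044), as were 135 and 354 of the 12317 genes. Quantile normalization left 0 members at 2-fold in Cdh5Cre, put Igfbp4 at 0.34, Igfbp5 at -0.10 and Igfbp7 at -0.25, gave a median of -0.29 in Sm22Cre against Cdh5Cre and left 0 pathway genes lower in Sm22Cre against floxed, as did a filter at 5 FPKM. Pseudocounts of 0.1 and 0.01 FPKM each gave 7 pathway genes higher in Cdh5Cre, 2 lower in Sm22Cre against floxed and 9 higher in Sm22Cre against Cdh5Cre. Among genes with status OK, 0 members were lower by 1.5-fold in either comparison against floxed, since Igf1r and Igfbp2 have status FAIL. Beyond what each setting's construction shows, the cause was not tested. Leaving out a replicate could not be run on group values. No paired analysis was possible because the groups share no replicate numbers and the table holds no value per library.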

Other observations

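The liver is the main source of circulating IGF1, and hepatocyte markers were looked for in the tissue. Of 6 markers, 5 (Alb, Apoa1, Ttr, Serpina1a and Tat) were under 1 FPKM in every group. The other, Cyp2e1, was at 45.1 FPKM in floxed aorta, 52.5 in Cdh5Cre and 44.04 in Sm22Cre, and it is expressed outside the liver as well.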
